A study of Rattus norvegicus with 36 samples.

Results

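The genes described are 50 cell cycle and proliferation genes, of which 47 were measured among the 14217 rat genes that had a probe set of their own on the array. A gene was measured where at least 1 probe set (a set of short oligonucleotides that reports 1 transcript) carried its symbol and no other, and the probe set with the highest mean over all arrays was used. The 47 genes are 4 regulators of G1 and the entry into S phase, 12 genes of S phase and DNA replication, and 31 genes of G2 and mitosis, here called mitotic members. Tpx2, Ndc80 and Rrm2 were not analysed here, since no probe set carried any of these symbols alone.

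Liver RNA came from male Harlan Sprague Dawley rats that were 7 weeks old when dosing began. They were gavaged on each of 5 days with corn oil at 5 ml/kg, and the left liver lobe was taken 1 day after the last dose. One group had corn oil alone (vehicle). In the other 5 groups the oil carried TBPH, or bis(2-ethylhexyl) tetrabromophthalate, a phthalate ester with a brominated ring that is used as a flame retardant. The lowest dose was 0.07 mg/kg and the highest 706 mg/kg, with 0.71 mg/kg, 7.06 mg/kg and 70.6 mg/kg between them. Each of the 6 groups had 6 arrays, 36 in all, and the vehicle arrays served as controls for every dose. Whether each replicate was an animal of its own is not stated in the labels, and the p-values then measure only the spread between these arrays, which may be technical. Values are log2 expression values, from 1.86 to 14.77 with a median of 5.09 over all probe sets, and arrays give no read depth. Hepatocyte markers marked the tissue as liver on every array, with albumin (Alb) between 14.73 and 14.77 and transthyretin (Ttr) between 14.29 and 14.38. In whole liver, fewer cells of a type and less RNA per cell cannot be told apart.

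Most hepatocytes of an adult liver rest outside the cell cycle and can enter it again after tissue loss or on a mitogenic signal. Cyclin D and its kinases carry a cell through G1, and cyclin E with Cdk2 starts S phase, in which the Mcm2 to Mcm7 helicase, loaded by Cdt1, opens DNA for copying. Cyclin A and cyclin B with Cdk1 then drive the cell into mitosis, where kinesins and kinetochore proteins build the spindle and Cdc20 and Ube2c help the anaphase-promoting complex to destroy the cyclins. Transcription of S phase genes is known to depend on E2F factors. Transcription of mitotic genes is known to use CCAAT boxes, bound by NF-Y, and the cell cycle genes homology region (CHR), bound by the MuvB core of the DREAM and B-Myb complexes.

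Because the mitotic members moved together from array to array and the S phase members did so less, as described further on, the words those factors read were looked up in the promoters. RefSeq promoters of the rat assembly GRCr8 were matched for 39 of the 47 genes, and the 250 bases before each start site were searched on both strands. Among mitotic members, 20 of 26 promoters (76.9%) held CCAAT, against 34.3% of all 27457 promoters. The CHR words TTTGAA or TTCGAA stood in 12 of 26 (46.2%) against 17.3% of all promoters, and both kinds stood in 11 of 26 (42.3%) against 6.22%. The E2F-like words searched were TTCCCGC, its variant TTCGCGC and the further variant TTGGCGC, and at least 1 of them stood in 7 of 11 S phase promoters (63.6%), in 5 of 26 mitotic promoters (19.2%) and in 6.41% of all promoters. CCAAT stood in 7 of 11 S phase promoters too, the CHR words in 3 of 11 (27.3%) and both kinds in 2 of 11 (18.2%), so these words were not limited to the mitotic genes. On the other strand the last of these words reads GCGCCAA, which can overlap CCAAT. Over the 11701 promoters of genes on the array the shares were 35.1% for CCAAT, 12.4% for the CHR words, 4.61% for both and 10.8% for the E2F-like words. A match of this kind is a description of letters and not evidence of a bound site. Mitotic members that varied most alike were found with both kinds and without, and a link between the words and this variation was not tested. Cdk1 and Ect2 hold both kinds, with r = 0.97 each with the mean of the other mitotic members. Ccnb2 holds both with r = 0.94. Kif20a and Cdca3 hold CCAAT but no CHR word, with r = 0.95 and 0.94. Kif23 holds both kinds, with r = 0.02 for the probe set used and 0.77 for its dimmer probe set.

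The promoters of 4 mitotic members with both words are shown, the first 4 by r with the mean of the other mitotic members among genes named by rule. Each runs 5′ to 3′ on the strand of its gene, with CCAAT (or its reverse ATTGG) and the CHR words (or the reverse TTCAAA) in capitals.
Cdk1, chr20:19265073-19265292, plus strand: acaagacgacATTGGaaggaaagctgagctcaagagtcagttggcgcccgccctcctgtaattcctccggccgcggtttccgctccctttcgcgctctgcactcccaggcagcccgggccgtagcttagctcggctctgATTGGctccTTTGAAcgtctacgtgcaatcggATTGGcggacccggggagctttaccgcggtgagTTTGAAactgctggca
Ect2, chr2:111966652-111966791, minus strand: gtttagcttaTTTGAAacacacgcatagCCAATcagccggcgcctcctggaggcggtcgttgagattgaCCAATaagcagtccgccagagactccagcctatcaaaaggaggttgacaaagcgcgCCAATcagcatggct
Mki67, chr1:199952673-199952792, minus strand: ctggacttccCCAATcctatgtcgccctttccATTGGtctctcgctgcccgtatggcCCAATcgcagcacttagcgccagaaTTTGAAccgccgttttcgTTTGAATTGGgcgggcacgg
Top2a, chr10:84473100-84473342, minus strand: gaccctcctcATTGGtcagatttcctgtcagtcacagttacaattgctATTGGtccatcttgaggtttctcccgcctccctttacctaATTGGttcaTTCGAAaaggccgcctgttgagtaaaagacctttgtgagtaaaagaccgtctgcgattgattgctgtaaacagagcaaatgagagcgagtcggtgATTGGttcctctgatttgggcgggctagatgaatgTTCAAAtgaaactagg

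In the Cdk1 promoter the capitals nearest the start site are a TTTGAA whose first base lies 16 bases before it, with a CCAAT word at 49. In Mki67 a TTTGAA and an ATTGG share a letter, with their first bases at 99 and 94 bases before the start. The other 4 sequences are promoters of S phase members with E2F-like words, with those words or their reverse in capitals. Of the genes named by rule, those with the words were taken in order of their r with the mean of their own role, at most 4 for each role.
Mcm2, chr4:122918095-122918117, minus strand: tgacccggttTTCGCGCGAAaac
Mcm7, chr12:22163210-22163421, minus strand: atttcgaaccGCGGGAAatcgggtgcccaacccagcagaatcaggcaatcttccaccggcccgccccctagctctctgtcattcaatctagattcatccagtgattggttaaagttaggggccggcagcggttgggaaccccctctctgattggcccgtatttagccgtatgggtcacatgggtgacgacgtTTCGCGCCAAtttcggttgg
Mcm5, chr19:13488591-13488812, plus strand: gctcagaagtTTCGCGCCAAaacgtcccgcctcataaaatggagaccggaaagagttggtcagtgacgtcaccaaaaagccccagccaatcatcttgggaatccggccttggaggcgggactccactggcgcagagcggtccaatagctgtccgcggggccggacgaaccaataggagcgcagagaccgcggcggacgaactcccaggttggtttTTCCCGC
Gins1, chr3:160184886-160184915, plus strand: ttaagcctatTTGGCGCCAAagagaggagc

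In Mcm2 and Gins1 the words of both strands overlap, in Gins1 with first bases at 24 and 21 bases before the start. Mcm7 and Mcm5 each hold 3 of these words within the window. Gins1, whose promoter holds the E2F-like word on both strands, had the lowest correlation with the mitotic members of the 12 S phase members (r = -0.07), as given with the other members below.

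No cell cycle gene could be called different from vehicle at any dose. With limma's moderated test and Benjamini-Hochberg adjustment over all 31042 probe sets, 0 of 47 members had an adjusted p under 0.05 in any of the 5 dose comparisons, the slope over dose rank (vehicle as rank 0, then the doses in order) or the test of any difference among the 6 groups. The share of all probe sets called was 0% in each. Before adjustment, 0 members at 0.07 mg/kg, 0 at 0.71 mg/kg and 0 at 7.06 mg/kg had p under 0.05, where the share of all probe sets was 3.07%, 3.98% and 3.48%. The count was 1 member at 70.6 mg/kg, lower than vehicle, where the share of all probe sets was 5.24% in both directions and 2.82% lower. In the test of any difference among the groups it was 0 members, against 2.54% of all probe sets. At 706 mg/kg it was 5 members, all higher, where 1.33% of all probe sets were higher at that threshold and 3.48% differed in either direction. For the slope it was 4 members, all rising with rank, where the share of all probe sets was 1.72% in that direction and 4.16% in both. No member's 6 arrays at any dose lay wholly above or below the 6 vehicle arrays, which 0.141% to 0.218% of all genes did at the 5 doses.

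**Figure D1:**
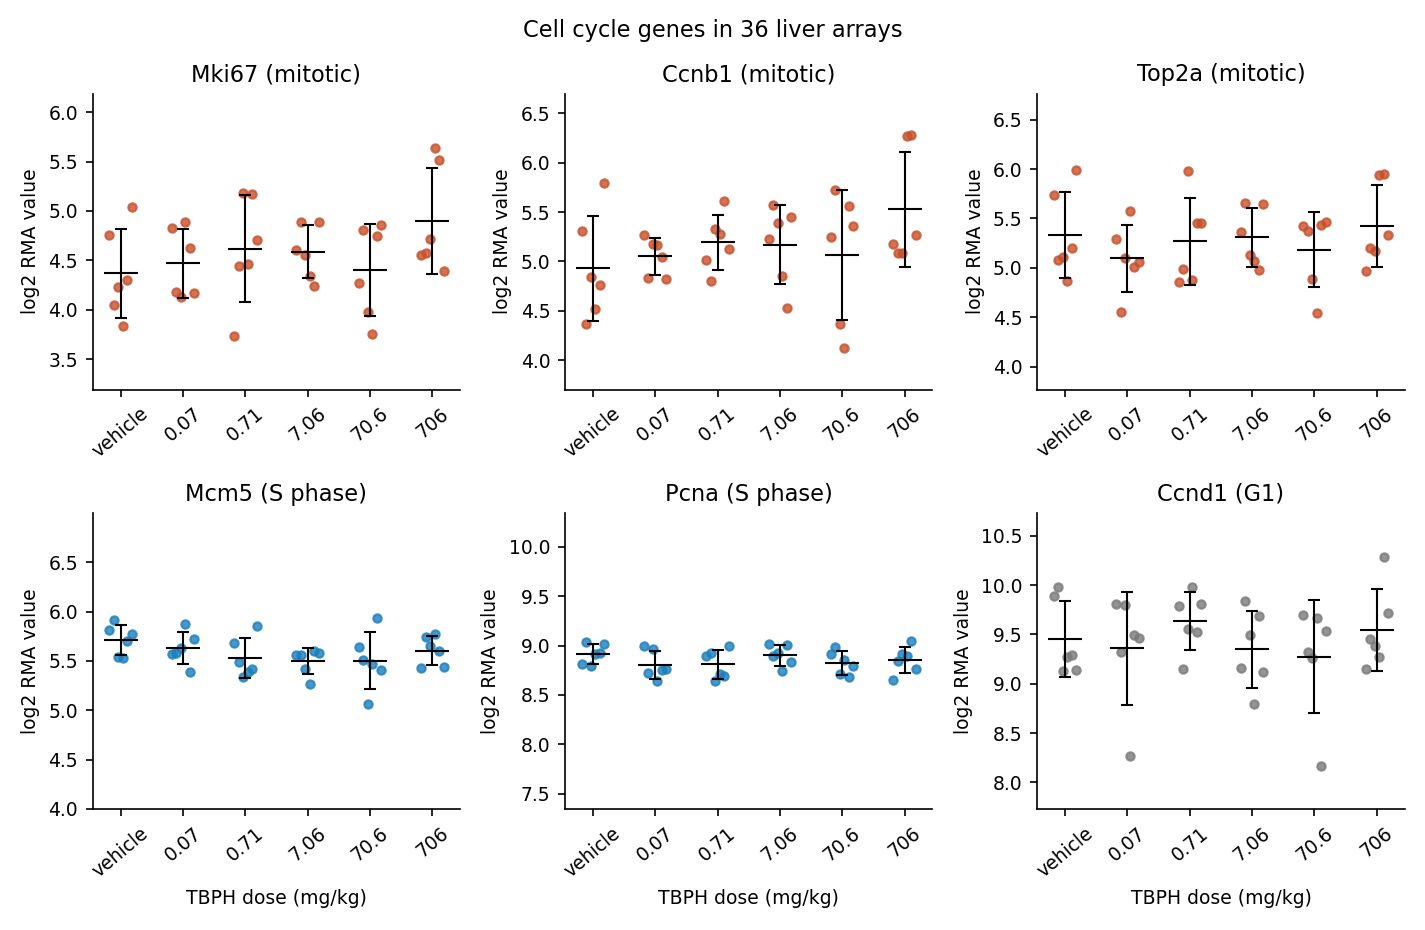
Log2 RMA values (y axis) of 3 mitotic, 2 S phase and 1 G1 member on each of 36 arrays by group (x axis, TBPH in mg/kg); points are arrays, the long bar is the mean and the error bar 1 SD (n = 6 per group), and all panels span the same number of log2 units. Mki67 and Top2a have SDs of 0.27 to 0.54 inside the groups and Pcna of 0.10 to 0.15, and the dose groups overlap with vehicle in all 6 panels.

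None of the 4 G1 members passed the test at any dose, and Ccnd1 varied most between arrays. Ccnd1, cyclin D1, had the highest mean of all members at 9.44. In vehicle it ran from 9.13 to 9.98 with a median of 9.28, and at 706 mg/kg from 9.15 to 10.29 with a median of 9.42. These ranges overlapped almost wholly, and the difference of 0.09 (95% interval -0.39 to 0.58) did not pass the test (limma, adjusted p = 0.9995). At the doses between, the Ccnd1 medians were 9.48, 9.67, 9.32 and 9.43 from 0.07 to 70.6 mg/kg, with single low arrays of 8.26 at 0.07 mg/kg and 8.17 at 70.6 mg/kg. Ccne1, cyclin E1, ran from 4.74 to 5.22 in vehicle (median 4.92) and from 4.81 to 5.20 at 706 mg/kg (median 5.00). The medians of Ccne1 at the other doses lay between 4.91 and 5.05, so no dose stood apart. Ccne2, cyclin E2, was the member of smallest p at 70.6 mg/kg, where its arrays ran from 3.25 to 3.41 against 3.33 to 3.70 in vehicle. That difference of -0.22 (-0.40 to -0.03) had an unadjusted p of 0.0217 and an adjusted p of 0.921 (limma). A dimmer probe set of Ccne2 correlated with the one used at only r = 0.19. At a mean of 3.46 this gene is dim, 1 of the 14 members whose mean lay below 5, where the median over all probe sets was 5.09. Cdk2, the kinase partner of cyclin E, had the smallest spread of all members, with an SD inside groups of 0.12, and differed by 0.09 (-0.06 to 0.23) at 706 mg/kg.

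None of the 12 S phase members passed the test either, and their values spanned narrow ranges. Pcna, the sliding clamp of the DNA polymerases, ran from 8.80 to 9.04 in vehicle (median 8.92) and from 8.65 to 9.05 at 706 mg/kg (median 8.87). Its medians at the 4 doses between were 8.76, 8.80, 8.91 and 8.82, and the lowest Pcna value over all 36 arrays was only 1.33-fold below the highest. The interval of the 706 mg/kg difference, -0.06 (-0.21 to 0.09), leaves out a shift of more than 0.21 in either direction. Mcm2, a helicase subunit, ran from 5.58 to 6.01 in vehicle (median 5.69) and from 5.55 to 5.84 at 706 mg/kg (median 5.75), a difference of -0.03 (-0.19 to 0.12).

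Mcm5, another subunit of the same helicase, was below vehicle on average at every dose without passing the test at any. Its vehicle arrays ran from 5.53 to 5.91 with a median of 5.74. The medians were 5.61, 5.45, 5.56, 5.49 and 5.63 from the lowest to the highest dose, with the widest range at 70.6 mg/kg, from 5.06 to 5.94. The differences were -0.18 at 0.71 mg/kg, -0.21 at 7.06 mg/kg and -0.21 at 70.6 mg/kg, with unadjusted p-values of 0.0927, 0.0509 and 0.0571, and at 706 mg/kg -0.11 (-0.32 to 0.11). These differences share the vehicle arrays and are not independent of each other. Gins1, a subunit of the GINS complex of the replication fork, was next to Mcm5 at 0.71 mg/kg with -0.15 (-0.33 to 0.02; unadjusted p = 0.0895).

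Tk1, thymidine kinase 1 of the nucleotide salvage pathway, was the S phase member that came closest to the mitotic members. It ran from 6.78 to 7.22 in vehicle (median 6.93), and its medians were 7.11, 7.06, 7.01, 7.05 and 7.15 across the 5 doses. At 706 mg/kg, where it ran from 6.91 to 7.48, the difference was 0.18 (0.02 to 0.35; unadjusted p = 0.03; limma, adjusted p = 0.9995). Its 3 probe sets did not move alike, since the second brightest gave 0.26 and the dimmest -0.22. The remaining S phase members at 706 mg/kg, which are Tyms and Rrm1 of nucleotide synthesis, Cdt1 and the helicase subunits Mcm3, Mcm4, Mcm6 and Mcm7, lay between 0.0006 and 0.10. In all, 8 of 12 S phase members were above vehicle at 706 mg/kg with a median difference of 0.01, against 53.1% of all genes above vehicle and a median of 0.0059. Without replicates 4 and 5 at 706 mg/kg, which are described with the mitotic members, 3 of 12 were above vehicle with a median of -0.02, and Tk1 gave 0.08.

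Mitotic members were higher on average at 706 mg/kg than in vehicle, and 2 of the 6 arrays at that dose stood above the other 4. There 27 of 31 mitotic members were above vehicle, with a median difference of 0.21, against 53.1% of all genes and a median of 0.0059. The members moved together between arrays, so their directions are not independent of each other and the count is not 31 separate results. The other 4 members, all below vehicle, were Kif23 (-0.10), Plk1 (-0.08), Pbk (-0.07) and Aurkb (-0.0038). Without replicates 4 and 5 at 706 mg/kg, 16 of 31 mitotic members were above vehicle and the median was 0.02. Leaving out replicate 4 alone gave 25 of 31 and 0.14, and leaving out replicate 5 alone gave 26 of 31 and 0.15. Without vehicle replicate 6, the highest of the vehicle arrays, it was 29 of 31 and 0.28. Replicates 4 and 5 at 706 mg/kg were picked as the highest of their group after seeing the data. Leaving out the highest arrays of only 1 group lowers the difference by construction, so it cannot show how much of the difference lay in them. The same limit holds for every value given without these replicates, for S phase members, single genes and slopes alike. The median of the mitotic score, described below, was -0.20 in vehicle and -0.01 at 706 mg/kg with all arrays kept.

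Ccnb1, cyclin B1, had the smallest p of all members at 706 mg/kg. Its vehicle arrays ran from 4.37 to 5.79 with a median of 4.80. At 706 mg/kg 4 arrays lay at 5.08, 5.09, 5.18 and 5.27, inside the vehicle range, and replicates 4 and 5 lay at 6.27 and 6.28, above every other array of the study. The difference of 0.60 (0.08 to 1.11) had an unadjusted p of 0.0236 and an adjusted p of 0.9995 (limma), and it was 0.22 without these replicates. The second Ccnb1 probe set, which correlated with the first at r = 0.85, gave 0.14. At the lower doses the Ccnb1 medians were 5.11, 5.20, 5.31 and 5.31, all above the vehicle median and all inside the vehicle range.

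Mki67, which encodes the Ki-67 antigen used to stain dividing cells, ran from 3.84 to 5.05 in vehicle (median 4.26). With a mean of 4.56 over all arrays, it is among the 14 members whose mean lay below 5. The 706 mg/kg arrays lay at 4.39, 4.56, 4.57, 4.72, 5.52 and 5.64, the last 2 again being replicates 5 and 4. The difference of 0.53 (0.04 to 1.02; unadjusted p = 0.0342; limma, adjusted p = 0.9995) was 0.19 without them. The medians at the doses between were 4.40, 4.58, 4.58 and 4.51. Top2a, topoisomerase II alpha, which untangles chromosomes before they part, had a vehicle array (replicate 6) as high as the highest arrays at 706 mg/kg. It ran from 4.86 to 5.99 in vehicle (median 5.15) and from 4.97 to 5.95 at 706 mg/kg (median 5.27). The difference was 0.10 (-0.33 to 0.52), and -0.16 without replicates 4 and 5.

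Cdk1, the kinase that cyclin B activates, ran from 5.61 to 6.79 in vehicle (median 5.70) and from 5.76 to 7.12 at 706 mg/kg (median 5.97). Its difference was 0.32 (-0.21 to 0.85), and -0.06 without replicates 4 and 5, whose removal lowers it by construction. Ccna2, cyclin A2, ran from 4.15 to 5.70 in vehicle (median 4.43) and from 4.39 to 5.81 at 706 mg/kg (median 4.68). The Ccna2 difference was 0.35 (-0.29 to 0.98), and -0.07 without the same replicates. Dlgap5, a spindle protein that steadies microtubules, had the next smallest p after Ccnb1 at 706 mg/kg, where it ran from 5.04 to 5.72 (median 5.41) against 5.02 to 5.40 in vehicle (median 5.16). Its difference of 0.24 (0.03 to 0.46; unadjusted p = 0.0286; limma, adjusted p = 0.9995) was 0.12 without replicates 4 and 5. Hmmr, a spindle-associated hyaluronan receptor, gave 0.43 (0.02 to 0.85) with an unadjusted p of 0.0387 and an adjusted p of 0.9995 (limma).

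By function, the differences at 706 mg/kg were spread over the mitotic machinery. Among cyclins and their regulators, Ccnb2 (cyclin B2) gave 0.41 and Cdkn3, a phosphatase of cyclin-dependent kinases, 0.58, with an interval of -0.19 to 1.36. Among motors and cytokinesis proteins, Kif20a gave 0.39, Racgap1 0.35, Ect2 0.34 and Prc1 0.22. Kif11, the motor that pushes spindle poles apart, gave 0.21, while the probe set used for Kif23 gave -0.10. The dimmer probe sets of Kif11 and Racgap1 gave less, 0.02 and 0.12, and correlated with the ones used at r = 0.43 and 0.31. Those of Kif23 and Nusap1 gave more than the ones used, 0.36 and 0.22. Among kinetochore and spindle checkpoint genes, Nuf2 gave 0.19, Mad2l1 0.14, Bub1 0.12, Cenpf 0.11 and Bub1b 0.10. Among mitotic kinases, Melk gave 0.17, Aurka 0.16, Aurkb -0.0038, Pbk -0.07 and Plk1 -0.08. The destruction factors Cdc20 and Ube2c gave 0.24 and 0.18, and Cdca3, an adaptor that targets a mitotic inhibitor for destruction, gave 0.39. Birc5 (survivin) gave 0.19, the spindle protein Nusap1 0.18 and the microtubule destabiliser Stmn1 0.22. The intervals of all genes in this paragraph, for the probe sets used, include 0.

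**Figure D2:**
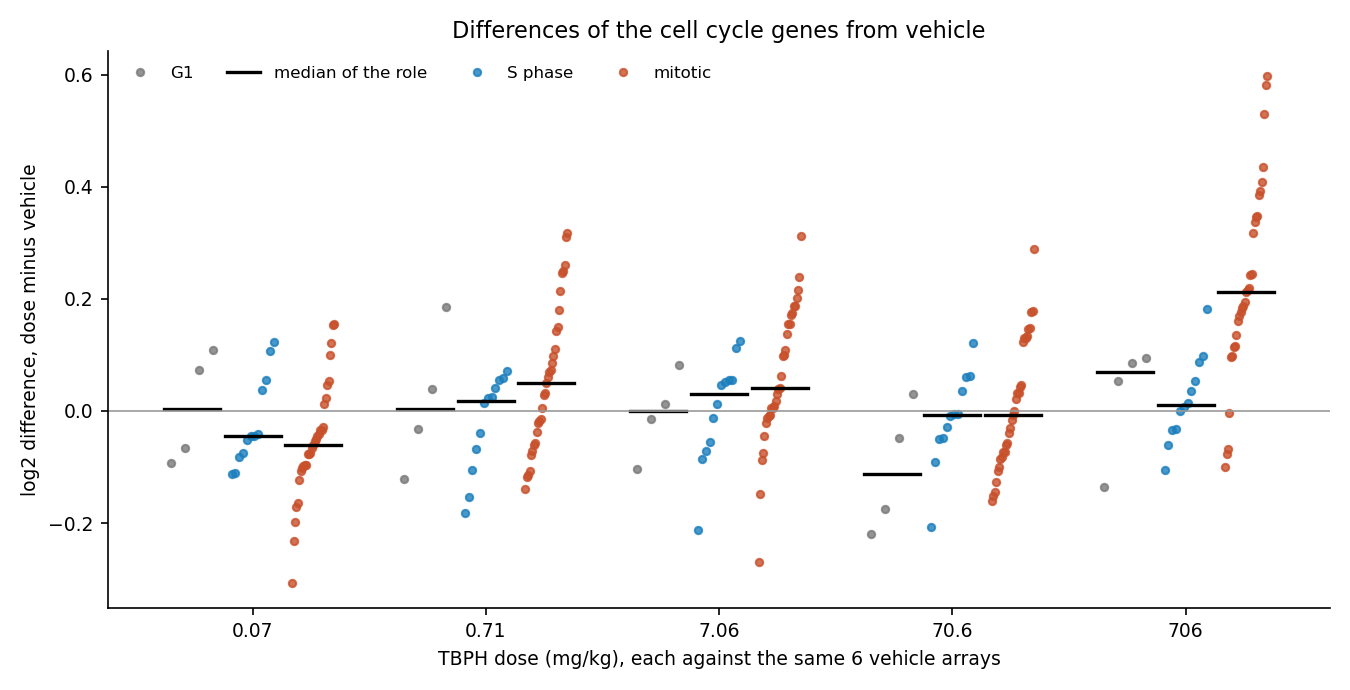
Log2 difference of each of the 47 genes from vehicle (y axis) at each TBPH dose (x axis, mg/kg, in order and not to scale), with 1 point per gene by role and a bar at the median of the role. The mitotic median is 0.21 at 706 mg/kg and between -0.06 and 0.05 at the other 4 doses, and all 5 comparisons use the same 6 vehicle arrays.

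At the lower doses neither direction prevailed throughout. At 0.07 mg/kg 23 of 31 mitotic members lay below vehicle, with a median difference of -0.06, where 51.6% of all genes lay above. At 0.71 mg/kg 19 of 31 lay above (median 0.05) and at 7.06 mg/kg 22 of 31 (median 0.04), where 53.4% and 54.4% of all genes did. At 70.6 mg/kg 14 of 31 lay above (median -0.0072), where the share of all genes was 54.8%. Leaving out vehicle replicate 6 moved the mitotic medians to 0.04 at 0.07 mg/kg, 0.14 at 0.71 mg/kg and 0.13 at 7.06 mg/kg. Leaving out replicate 3 at 0.71 mg/kg gave -0.04 there, and leaving out replicate 4 at 70.6 mg/kg gave 0.14 there, so leaving out 1 array turned the direction at 3 of these 4 doses, 7.06 mg/kg being the exception. The S phase medians over these 4 doses were -0.04, 0.02, 0.03 and -0.0077. The members with the smallest p were Pbk (PDZ-binding kinase) at 0.07 mg/kg, with -0.31 (-0.62 to 0.01; unadjusted p = 0.056), and Kif11 after Mcm5 at 7.06 mg/kg, with -0.27 (-0.58 to 0.04; unadjusted p = 0.0852). Pbk ran from 4.31 to 4.76 at 0.07 mg/kg against 4.48 to 5.41 in vehicle, and Kif11 from 4.22 to 4.67 at 7.06 mg/kg against 4.42 to 4.91, so both overlapped with vehicle. Next to Pbk at 0.07 mg/kg stood Tk1, with 0.12 (-0.04 to 0.29; unadjusted p = 0.137).

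Over dose rank, 29 of 31 mitotic members had a slope above 0, against 55.1% of all genes. The median was 0.03 log2 per rank, against 0.0017 for all genes. These members moved together between arrays, so the count is not 31 separate results. The median of the mitotic score, described below, did not rise at every step. It was -0.20 in vehicle and -0.15, -0.01, 0.05, 0.04 and -0.01 from the lowest to the highest dose. Of the S phase members 8 of 12 had a slope above 0 (median 0.0076), and of the G1 members 1 of 4. The smallest p belonged to Mad2l1, a spindle checkpoint protein, with 0.04 per rank (0.01 to 0.07; unadjusted p = 0.0221), and to Hmmr, with 0.08 per rank (0.01 to 0.14; unadjusted p = 0.0261). The adjusted p was 0.998 for both (limma). The other Mad2l1 probe sets, both dimmer, correlated with the one used at only r = 0.43 and 0.08. At 706 mg/kg they gave 0.07 and -0.08, where the one used gave 0.14. The dimmer Hmmr probe set correlated with the one used at r = 0.54 and gave 0.14 at 706 mg/kg, against 0.43. Mad2l1 medians went from 5.24 in vehicle to 5.11, 5.40, 5.33, 5.32 and 5.33, and Hmmr medians from 3.83 to 4.02, 4.04, 4.16, 4.23 and 4.27. The Hmmr medians stood in dose order, each step being smaller than the range inside any group. Ccnb1, with 0.09 per rank and an unadjusted p of 0.0471, and the checkpoint kinase Bub1b, with 0.03 per rank and an unadjusted p of 0.0444, came next (limma, adjusted p = 0.998 for both). Without replicates 4 and 5 at 706 mg/kg, 19 of 31 mitotic slopes were above 0, with a median of 0.0077. Hmmr and Mad2l1 then gave 0.04 and 0.02 per rank. Leaving out these arrays, picked as the highest of their group, lowers the slopes by construction. In the test of any difference among the 6 groups the smallest p belonged to Kif11 (F = 2.35, unadjusted p = 0.0608) and Dlgap5 (F = 1.99, unadjusted p = 0.105), and the adjusted p was 1.00 for both (limma).

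The mitotic members spread widely between arrays of the same group. The median SD inside groups was 0.31 for the 31 mitotic members, 0.15 for the 12 S phase members, 0.15 for the 4 G1 members and 0.14 for all 14217 genes. Of the mitotic members 27 of 31 exceeded 0.18, the upper quartile of that SD over all genes, against 4 of 12 S phase members. Cdkn3 varied most, with an SD of 0.72 and a 7.30-fold range from 5.31 (replicate 6 at 0.07 mg/kg) to 8.18 (replicate 5 at 70.6 mg/kg). The array of 8.18 had the largest difference between GAPDH control probe sets, a sign of RNA quality given further on. The next highest Cdkn3 value was 7.78, at 706 mg/kg. Ccna2 (SD 0.58, 5.88-fold) and Ect2, the exchange factor that starts cytokinesis (SD 0.57, 5.03-fold), came next. The smallest spreads belonged to Cdk2 (SD 0.12), Pcna (0.13) and Mcm7 (0.13). This order did not follow the level. The members with the highest means, Ccnd1, Pcna and Stmn1 (9.44, 8.85 and 8.44), had SDs of 0.45, 0.13 and 0.26. The members with the lowest means, Melk, Ccne2 and Gins1 (3.32, 3.46 and 3.85), had SDs of 0.16, 0.16 and 0.15.

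The mitotic members varied together. After the group means were taken out, the mean correlation between pairs of mitotic members over the 36 arrays was 0.65, against 0.23 for pairs of S phase members, 0.29 between S phase and mitotic members, 0.09 for G1 members and 0.0086 for pairs of all genes. These are descriptions across arrays that share each array's labelling and normalization. Each mitotic member was set against the mean of the others, and the median r was 0.90. Cdk1 (0.97), Ect2 (0.97) and Kif20a (0.95) led, followed by Cdca3 (0.94), Stmn1 (0.94), Ccnb2 (0.94) and Ccna2 (0.94). The lowest were Kif23 (0.02), Melk (0.40) and Plk1 (0.41). For Kif23, a kinesin of the midzone, the dimmer probe set reached 0.77 with an SD of 0.27 and a difference of 0.36 at 706 mg/kg, so the low value holds for the brighter probe set only. Among S phase members the correlation with the mitotic mean was highest for Tk1 (0.76), Mcm6 (0.66) and Rrm1 (0.57) and lowest for Gins1 (-0.07), Tyms (0.01) and Pcna (0.08). Ccnd1 gave -0.10.

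**Figure D3:**
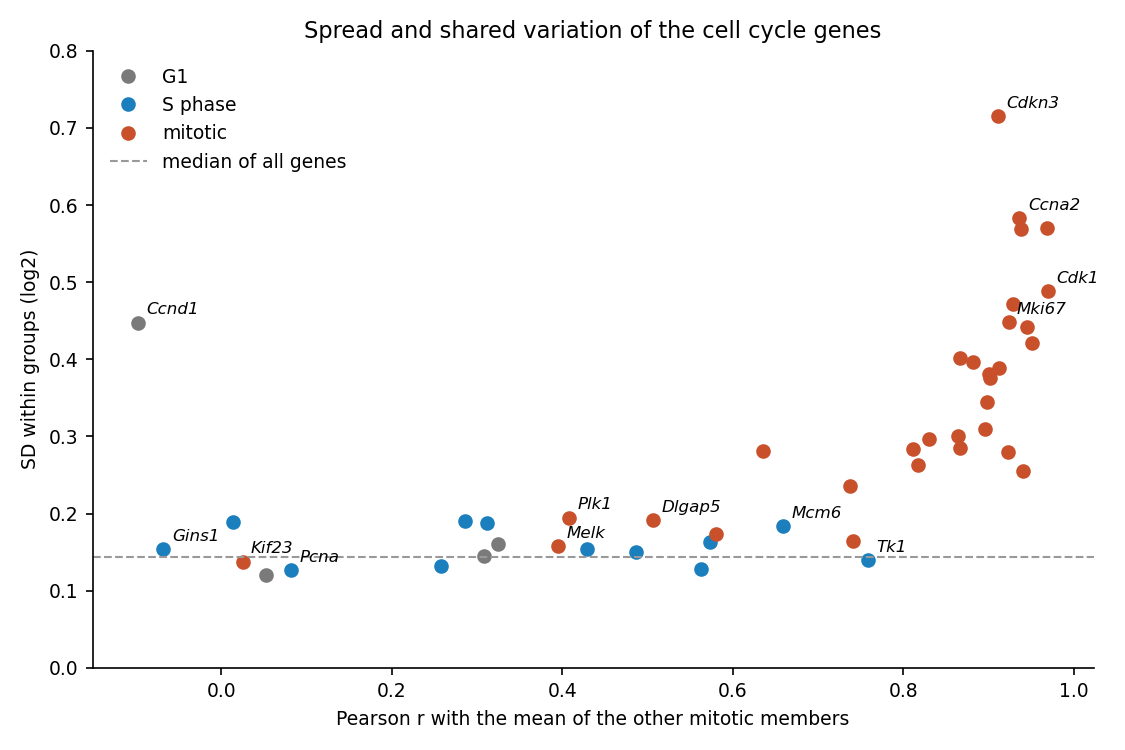
SD inside groups (y axis, log2) of each of the 47 genes against its Pearson r with the mean of the other mitotic members (x axis, 36 arrays, group means removed), coloured by role; the dashed line is the median SD of all genes, 0.14. Most mitotic members lie at the upper right with r above 0.8, and S phase members lie near the dashed line from r = -0.07 to 0.76.

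Single pairs were tested with Mki67. Mki67 and Top2a correlated at r = 0.88 and rho = 0.87 over the 36 arrays with group means removed (permutation within groups, two-sided, p = 1e-05, the smallest that 100000 resamples can give; adjusted over 4 pairs 2e-05). Mki67 and Ccnb1 correlated at r = 0.84 and rho = 0.86, with the same permutation p and adjusted p. For Mcm5, r was 0.20 (rho = 0.15, permutation p = 0.297, adjusted 0.396), and for Ccnd1 it was -0.13 (rho = -0.10, permutation p = 0.476, adjusted 0.476). Without the 2 arrays farthest from the Mki67 median, replicates 4 and 5 at 706 mg/kg, the values were 0.86, 0.79, 0.15 and -0.24. Inside each group of 6 arrays r ran from 0.72 to 0.99 for Top2a and from 0.65 to 0.96 for Ccnb1. For Mcm5 it ran from -0.46 to 0.54 and for Ccnd1 from -0.45 to 0.33. Mki67 therefore moved with its mitotic neighbours in every group, vehicle included (0.99 for Top2a and 0.96 for Ccnb1), while r was above 0 in 5 of 6 groups for Mcm5 and below 0 in 4 of 6 for Ccnd1.

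A score per array, the mean deviation of the 31 mitotic members from their own means over all arrays, shows where this variation lies. In vehicle the score ran from -0.29 to 0.47 with a median of -0.20. The medians from the lowest dose to the highest were -0.15, -0.01, 0.05, 0.04 and -0.01. Replicates 4 and 5 at 706 mg/kg both scored 0.65, while the other 4 arrays of that group lay between -0.16 and 0.02. Vehicle replicate 6 scored 0.47 and replicate 3 at 0.71 mg/kg 0.39. The lowest array was replicate 4 at 70.6 mg/kg, with -0.60. Of 31 mitotic members 12 were highest of all arrays on replicate 5 at 706 mg/kg, 8 on replicate 4 at 706 mg/kg and 3 on vehicle replicate 6, and 11 were lowest on replicate 4 at 70.6 mg/kg. The highest scores of all arrays were thus at 706 mg/kg and the lowest at 70.6 mg/kg. In vehicle the highest was 0.47 on replicate 6 and the lowest -0.29 on replicate 4. The group means were -0.05 ± 0.30 in vehicle and 0.18 ± 0.37 at 706 mg/kg (SD, n = 6 each), and group membership held 9.60% of the variance of the score, where 6 groups of 36 unrelated arrays would hold 14.3% on average.

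**Figure D4:**
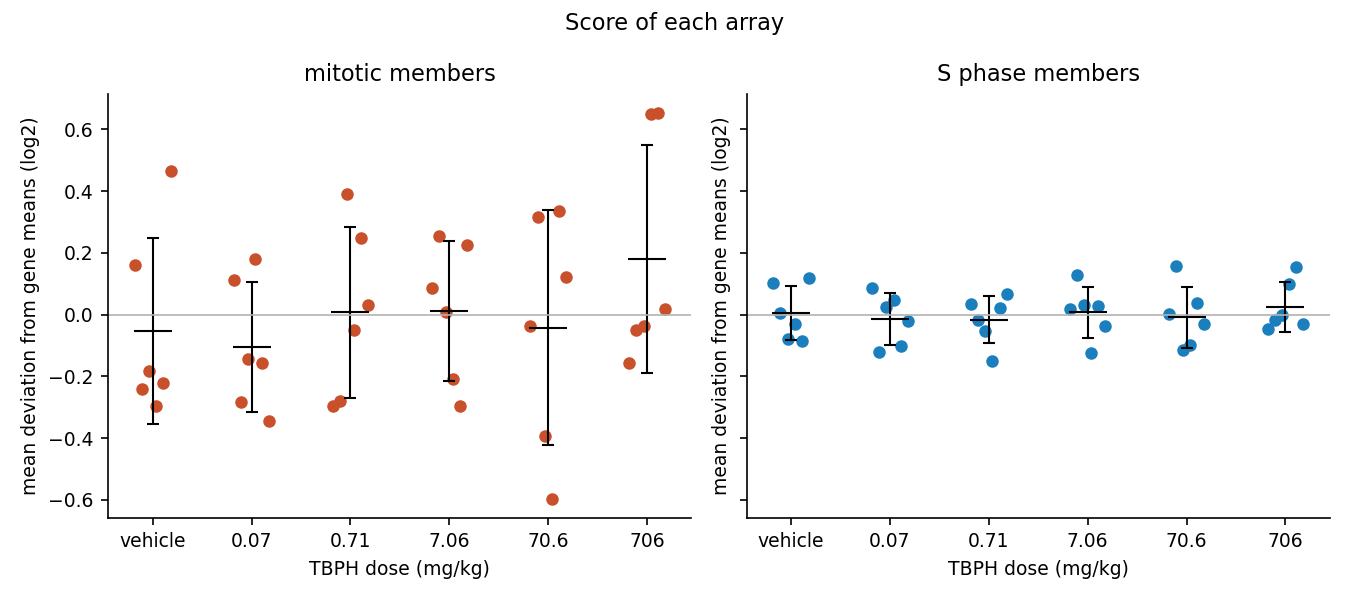
Score of each array (y axis, mean log2 deviation of the genes of a role from their own means over 36 arrays) for mitotic members on the left and S phase members on the right, by TBPH dose (x axis, mg/kg); points are arrays, the bar is the mean and the error bar 1 SD (n = 6). Mitotic scores run from -0.60 to 0.65, S phase scores from -0.15 to 0.16 on the same scale, and replicates 4 and 5 at 706 mg/kg stand above the other 4 arrays of their group.

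The same score for the 12 S phase members had an SD inside groups of 0.09, against 0.30 for the mitotic score. It ran from -0.15 to 0.16 over all arrays, and groups held 3.35% of its variance. Its highest arrays were the 70.6 mg/kg replicate 2 (0.16), the 706 mg/kg replicate 5 (0.15) and the 7.06 mg/kg replicate 2 (0.13), and its lowest was the 0.71 mg/kg replicate 4 (-0.15). The S phase and mitotic scores correlated at r = 0.66 and rho = 0.63 over 36 arrays with group means removed, at 0.62 without replicates 4 and 5 at 706 mg/kg, and at -0.10 to 0.96 inside single groups. The G1 score did not follow the mitotic score (r = 0.11).

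**Figure D5:**
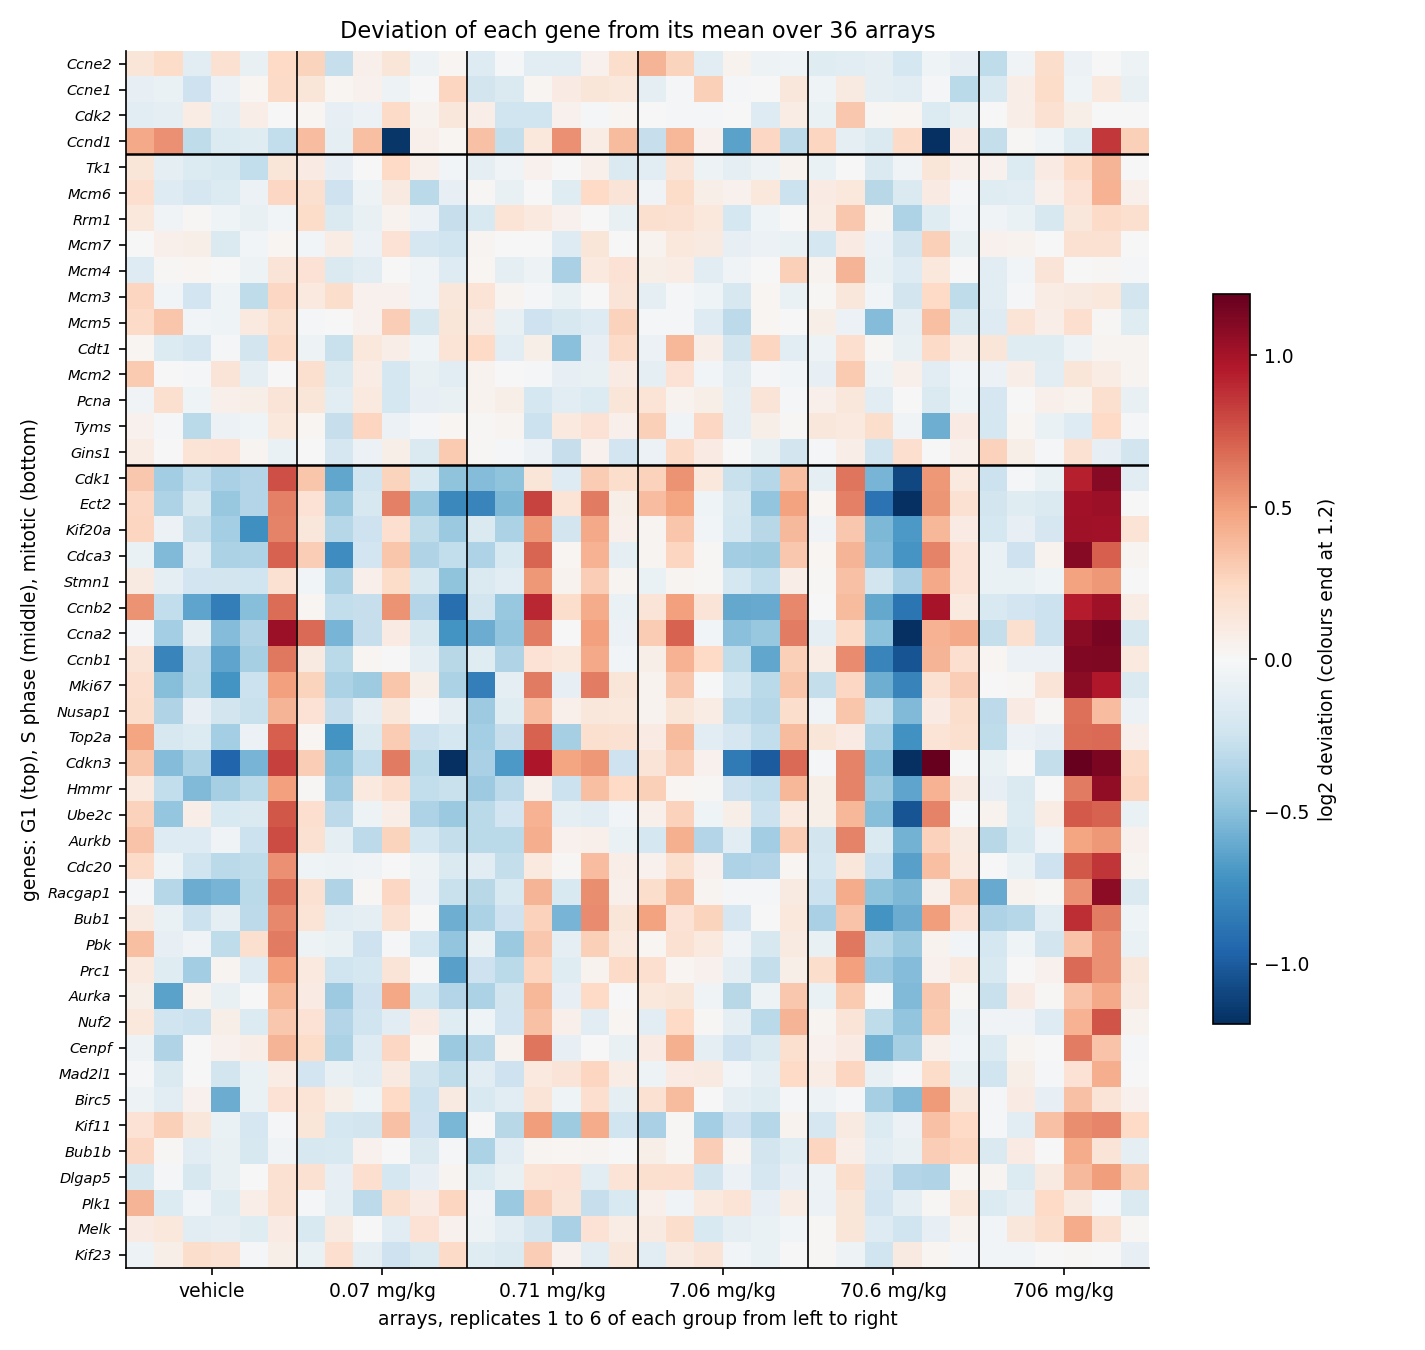
Deviation of each of the 47 genes (rows, by role and, inside a role, by r with the mitotic mean) from its mean over all arrays on each of 36 arrays (columns, replicates 1 to 6 from left to right inside each group); the colour is log2, red above and blue below the mean. Columns of 1 colour through nearly all mitotic rows, such as those of replicate 4 at 70.6 mg/kg and of replicates 4 and 5 in the highest dose group, are fainter in the S phase and G1 rows.

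Markers of other cells moved with the mitotic score to differing degrees, and their part in it was not tested. The mean of 6 measured erythroid genes (7 were listed) correlated with the mitotic score at r = 0.55 and rho = 0.54, at 0.53 without the 2 arrays farthest out, and at -0.29 to 0.82 inside single groups. Beta-globin (Hbb) and the haem synthesis enzyme Alas2, the brightest of these genes, each gave 0.52. The erythroid mean ran from 5.98 to 6.50 in vehicle, 6.06 to 6.25 at 0.07 mg/kg, 5.94 to 6.46 at 0.71 mg/kg, 6.04 to 6.59 at 7.06 mg/kg, 5.88 to 6.59 at 70.6 mg/kg and 5.90 to 6.31 at 706 mg/kg. At 706 mg/kg all 6 erythroid genes were below vehicle on average (median difference -0.07). Of the other lists at that dose, 7 of 7 stellate and fibroblast markers were above vehicle (median 0.14) and 6 of 7 hepatocyte markers below (median -0.02). None of them was called (limma), and 53.1% of all genes were above vehicle. Such counts were not limited to this dose. At 0.71 mg/kg 6 of 7 stellate markers were above vehicle (median 0.24). Kupffer cell markers were 6 of 6 above at 0.07, 0.71 and 70.6 mg/kg and 1 of 6 at 7.06 mg/kg. The hepatocyte mean ran from 13.81 to 13.87 at 706 mg/kg and from 13.87 to 13.91 in vehicle. These ranges all but met, with the highest 706 mg/kg array at 13.866 and the lowest vehicle array at 13.8664. The 0.07 mg/kg arrays ran from 13.80 to 13.89, across parts of both ranges. The stellate mean ran from 7.26 to 7.43 at 706 mg/kg, inside its vehicle range of 6.70 to 7.72. Above vehicle at 706 mg/kg were also 4 of 6 Kupffer cell, 4 of 6 lymphocyte, 2 of 5 endothelial and 2 of 4 cholangiocyte markers. The other lists gave r = 0.44 for sinusoidal endothelium, 0.31 for Kupffer cells, 0.13 for stellate cells, -0.04 for lymphocytes, -0.21 for hepatocytes and -0.21 for cholangiocytes. Log2 values have no zero, so none of these markers can be called absent. The difference between the 3′ and 5′ GAPDH control probe sets, a sign of RNA quality, correlated with the mitotic score at r = 0.32. Replicates 4 and 5 at 706 mg/kg had GAPDH differences of -0.0070 and -0.04, inside the range of vehicle (-0.18 to 0.03).

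The low Ccnd1 arrays were also the 2 arrays with the highest GAPDH differences, 0.33 on the 0.07 mg/kg array (its replicate 4) and 0.41 on the 70.6 mg/kg array (its replicate 5), against at most 0.09 elsewhere. The Ccnd1 probe sets differed there. The brightest read 8.26 and 8.17 against at least 9.33 and 9.26 on the other arrays of each group, and the dimmest of the 3 read 7.30 and 7.10 against at least 7.77 and 7.54 on the others. The middle one read 8.91, inside the range of its group (8.73 to 9.12), and 8.65, against at least 8.68 on the others. Without these 2 arrays the correlation of Mki67 with Ccnd1 was 0.05 in place of -0.13.

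In a second list of 60 cell cycle genes outside the members, of which 51 were measured, no gene was called, with 0 adjusted p-values under 0.05 in any comparison (limma). At 706 mg/kg 33 of 51 were above vehicle with a median of 0.03, against 53.1% of all genes and a median of 0.0059. There 2 higher genes and 1 lower gene had an unadjusted p under 0.05, where 1.33% of all probe sets were higher and 3.48% differed in either direction. The 5 dose differences of Mybl2, named here for its small p, share the vehicle arrays and are not independent of each other. This gene encodes B-Myb of the complex that reads CHR words. It was below vehicle at all 5 doses, with -0.15, -0.22, -0.32, -0.16 and -0.27 from the lowest to the highest dose. Its interval at 7.06 mg/kg was -0.48 to -0.16 (unadjusted p = 0.0003; limma, adjusted p = 1.00) and at 706 mg/kg -0.43 to -0.11 (unadjusted p = 0.0016; adjusted p = 0.9995). Foxm1 and E2f1, transcription factors of mitotic and S phase genes, gave 0.06 (-0.10 to 0.22) and 0.03 (-0.20 to 0.27) at 706 mg/kg. The cyclin-dependent kinase inhibitors Cdkn1a (p21) and Cdkn1b (p27) gave 0.19 (-0.05 to 0.42) and 0.06 (-0.07 to 0.19). Gmnn, geminin, which blocks relicensing of DNA, gave 0.22 (0.04 to 0.40; unadjusted p = 0.0168).

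Other genes of smallest p in this list were spread over the doses. The kinesin Kif18a was above vehicle by 0.31 at 70.6 mg/kg (0.13 to 0.50; unadjusted p = 0.0015; limma, adjusted p = 0.921) and had a slope of 0.04 per rank (unadjusted p = 0.0312). Chek1, a DNA damage checkpoint kinase, gave -0.29 at 70.6 mg/kg (-0.55 to -0.03; unadjusted p = 0.0306). Cenpa, the centromere histone, gave -0.25 at 7.06 mg/kg (-0.42 to -0.08; unadjusted p = 0.005). Pola1, a subunit of the priming DNA polymerase, gave 0.18 at 0.07 mg/kg (-0.02 to 0.39), and Chaf1b, of the chromatin assembly factor, -0.12 at 0.71 mg/kg (-0.26 to 0.02).

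Of 9734 other genes compared over the 36 arrays with group means removed, those whose pattern was most like the mitotic score were Pclaf (r = 0.93), Spc25 (0.91), Spc24 (0.91), Pttg1 (0.90), Aspm (0.88), Arhgap11a (0.86), Tcf19 (0.81), H2az1 (0.79), Haus4 (0.79) and Tacc3 (0.78). Pclaf is a PCNA-associated factor, Spc24 and Spc25 are subunits of the NDC80 kinetochore complex, Pttg1 is securin and Aspm a spindle pole protein. Pttg1, Aspm and Tacc3 were on the second cell cycle list. At 706 mg/kg these genes differed from vehicle by -0.0066 (Haus4) to 0.34 (Pclaf). The most opposite genes were Tmem38a (-0.58), Vamp1 (-0.55) and Armc8 (-0.53), with weaker correlations than any of the 10 most alike.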

How the data were processed

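The authors deposited 1 table of log2 values per probe set and array, made by RMA (background correction, quantile normalization and a summary per probe set) with the affy package per the submitters' processing notes, with versions and genome build not given in the sources used here. The table has 31099 probe sets, and 31042 were tested once the 57 controls were dropped; 20826 had 1 symbol in the platform annotation. All 36 arrays entered each fit (limma 3.58.1, R 4.3.3), which gave every group its own mean and left 30 residual degrees of freedom. Tests were two-sided, with Benjamini-Hochberg adjustment over all probe sets and a threshold of 0.05, the nearest fit to the R/maanova test of the design text, which was not installed. The fit was tested on simulated data. Members, lists and tests were chosen with earlier results of these data known. Named with values are a panel (Mki67, Top2a, Cdk1, Ccnb1, Ccna2, Mcm2, Mcm5, Tk1, Pcna, Ccnd1, Ccne1), the 2 members of smallest p in each comparison, the 3 highest and 3 lowest in level and in spread, the 10 genes most like and 3 most opposite to the mitotic score, and others given as examples. Alternatives changed the arrays, block, moderation, weights, filter, normalization, probe sets per gene and dose scale; leaving out replicates 4 and 5 at 706 mg/kg together was chosen after seeing the data. Promoters came from RefSeq (GRCr8). Python 3.11.15, numpy 2.4.6 and matplotlib 3.10.9 were used.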

Additional observations from a re-analysis of the deposited data

Results flagged for a closer look

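Each of 24 members named by rule and the S phase and mitotic scores were looked at in every dose group. In 4 of these 156 groups of 6 arrays, 1 array stood apart from the rest of its group by more than Dixon's critical value for the gap over the whole range of 6 samples. Chance flags about 1 in 20 groups, so 4 of 156 is fewer than that rate gives. Ccna2 was highest on vehicle replicate 6, at 5.70 against 4.65 on the next array, and this array had the highest mitotic score of its group. Ccnd1 was lowest on replicate 4 at 0.07 mg/kg, at 8.26 against 9.33 on the next, and on replicate 5 at 70.6 mg/kg, at 8.17 against 9.26. Those were the arrays of the highest GAPDH control difference. Mcm2 was highest on replicate 2 at 7.06 mg/kg, at 5.87 against 5.67 on the next.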

How the results depend on the processing

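No probe set passed the adjusted threshold in any of the 7 comparisons, nor under any of the 197 alternative fits of these counts, where the smallest adjusted p was 0.105. With the replicate number as a block the count was 0 in each comparison. The numbers gave no sign of pairing the arrays. Same-numbered arrays of different groups correlated at a median r of -0.02, and 17 of 90 pairs exceeded 0.1. For differently numbered arrays the median r was -0.0034, and 101 of 450 pairs exceeded 0.1. The 86 values of named members gave 0 calls in 2443 alternative fits, with 103 changes of sign. With each array left out in turn, the mitotic median at 706 mg/kg ran from 0.14 to 0.28 and its slope from 0.02 to 0.05 per rank, while the S phase median at 706 mg/kg ran from -0.0040 to 0.05. The mitotic medians ran from -0.13 to 0.04 at 0.07 mg/kg, -0.04 to 0.14 at 0.71 mg/kg, 0.0029 to 0.13 at 7.06 mg/kg and -0.07 to 0.14 at 70.6 mg/kg, so their sign was not settled at 3 of these doses. Among the other settings, the mitotic median at 706 mg/kg ran from 0.02 to 0.24, the highest with array weights. The S phase median there ran from -0.02 to 0.02. Both low ends came without replicates 4 and 5 of that dose, a setting that lowers the difference by construction. Of 47 members 36 passed a filter on dim probe sets (above 5 log2 on at least 6 arrays). A mean below 5 log2, where a change can be compressed by background, was found for 14. Mki67, Ccna2, Hmmr, Kif11 and Pbk were among these 14.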
